A study of Mus musculus with 36 samples.

Results

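The 4061 items described here are transcripts that the array design names only by a position and a strand, such as chr19:5771425-5848475_F, where the letters F and R stand for the forward and the reverse strand. They are intergenic noncoding RNA candidates by the design's naming. Each was found by the pattern of its name among 37325 genes measured on the array, and was represented by the brightest of its probes. In all, 4449 probes carried such a name. Forward names numbered 2068 and reverse names 1993. The median interval spanned 10251 bases, with quartiles at 1383 and 24726 bases.

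Long noncoding RNAs are transcribed by RNA polymerase II, are mostly spliced and polyadenylated, and are as a class less abundant and more tissue-specific than messenger RNAs. Some act in the nucleus as scaffolds, such as Neat1, on which paraspeckles are built. Others are by-products of transcription at enhancers, at promoters that fire in both directions, or beyond the ends of neighbouring genes. In the liver, fasting brings fatty acids released from adipose tissue, which hepatocytes oxidise, in part under the control of the nuclear receptor PPAR alpha. Adipose triglyceride lipase (ATGL) starts that release in fat cells, and the beta 3 adrenergic agonist CL316243 triggers it pharmacologically in fed animals.

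RNA came from the livers of 36 male C57Bl/6J mice, in 6 groups of 6. AAKO mice lack ATGL in white adipose tissue and CTRL mice are their controls, and the labels give neither the age of the animals nor the driver of the deletion. Mice of both genotypes were fed ad libitum, fasted for 24 h, or kept fed and gavaged with CL316243, at 3 mg per kg in 0.5% carboxymethyl cellulose, at Zeitgeber time (ZT) 10. All were killed at ZT16, in the dark phase. The fed groups are a separate experiment from the fasted and CL316243 groups, so that in any contrast with fed mice the condition and the experiment cannot be told apart, and the gavage was given to CL316243 mice alone. Two-sided p-values below are limma's, adjusted over all 24251 genes tested, and measure the spread between mice. A log2 level of 0 stands for the 75th percentile of that array. A transcript is said to rise, fall or differ where its adjusted p was under 0.05.

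As a tissue, the RNA carried all 8 hepatocyte markers tested. In fasted AAKO against fasted CTRL mice 2 of them were higher (Tat by 1.16 and Cps1 by 0.53) and 4 lower (Alb, Apoa1, Ttr and Cyp2e1, from -0.45 to -0.12), and 1 of 5 lymphocyte markers was lower. Of the 5 adipocyte markers, all detected, 1 was higher and 2 were lower in fasted AAKO than in fasted CTRL mice. In the same contrast 3 of 5 neutrophil markers were higher, with a mean log2 level between -1.15 and 1.38 in AAKO and between -3.13 and 1.02 in CTRL mice. Of the markers of liver endothelium 2 of 5 were also higher, and of stellate cells 2 of 5, while 2 of 4 of cholangiocytes were lower. Among those not called, Clec4g (0.31), Pecam1 (0.31) and Col1a1 (0.02) were positive, but Kdr (-0.15), Lrat (-0.31) and Des (-0.25) negative. Limma called none of the 6 Kupffer cell markers, with Clec4f at 0.19 (adjusted p = 0.555). Of all genes tested, 22.0% were higher and 27.2% lower in this contrast, so these few markers show no clear shift of a cell type. On fasting, 2 of 6 Kupffer cell markers fell in CTRL and 3 in AAKO mice, beside 24.0% and 36.1% of all genes. After CL316243, 3 and 5 of 6 fell, with 4 and 2 of 5 endothelial and 3 and 3 of 5 stellate cell markers. Of all genes, 12.7% and 15.9% fell there. The part of such cell types in the results below was not tested. In whole liver, fewer cells of a type and less RNA per cell cannot be told apart.

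One fasted CTRL mouse, replicate 2, stood toward the fasted AAKO mice. Of the 891 transcripts called between the fasted genotypes, it was the CTRL mouse nearest to the AAKO mean for 514 (57.7%), where each of the other 5 mice was for 47 to 131. Over all 2463 tested, this mouse was nearest for 842 (34.2%), and each of the other 5 for 11.1% to 14.6%. Without it 941 were called between the fasted genotypes, 678 on fasting in CTRL mice and 523 between fasted and treated CTRL mice. Interactions from fed to fasted then numbered 616, and from CL316243 to fasted 571. No call of a named transcript was lost without it, but these had been chosen for wide called differences, so little can be drawn from that. Why this mouse stood toward the AAKO mice was not tested.

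The label intergenic did not hold for every name. Of the 4061 intervals, 1031 (25.4%) contained a probe of a gene with another name, on the same strand in 552 and on the opposite strand in 600. A further criterion, a probe lying between probes of a single gene, was met on the same strand by 129 names and on the opposite strand by 127. No such gene was found for 2949 names (72.6%). The names also overlapped each other, since 1549 (38.1%) shared bases with another name on the same strand, and the whole set fell into 2149 separate loci. The coordinates are those of mouse build mm9, and exons of these transcripts were not analysed here.

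The probes are 60 bases long and are written below 5′ to 3′ in the sense of the transcript. The first set is shown because differences of these transcripts with genotype, fasting or CL316243 are described in detail below. The last is the one that differed between fed genotypes. None holds a polyadenylation hexamer, so all letters are in lower case.
chr1:138570107-138632310_F: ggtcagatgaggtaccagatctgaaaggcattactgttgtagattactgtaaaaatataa
chr3:121615836-121616109_F: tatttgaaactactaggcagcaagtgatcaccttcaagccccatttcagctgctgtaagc
chr11:18367482-18393258_R: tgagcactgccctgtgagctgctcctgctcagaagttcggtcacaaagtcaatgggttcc
chr5:136129679-136148860_R: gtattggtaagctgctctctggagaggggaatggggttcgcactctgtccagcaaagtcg
chr12:52944867-52971992_R: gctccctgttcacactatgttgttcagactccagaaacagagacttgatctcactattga
chr10:96103732-96103867_F: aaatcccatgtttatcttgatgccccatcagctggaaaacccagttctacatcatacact
chr9:88437245-88465751_F: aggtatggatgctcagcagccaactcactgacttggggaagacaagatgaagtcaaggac

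The next set shows probes of the same name, or of the same interval, whose signals were unlike. The part of their place or sequence in this was not tested. The probes of chr19:5771425-5848475_F lie side by side on the forward strand, opposite to Neat1, at bases 5844965 to 5845024 and 5845052 to 5845111, and their mean signals went in opposite directions on fasting.
chr19:5771425-5848475_F, first probe: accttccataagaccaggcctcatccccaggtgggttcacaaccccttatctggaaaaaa
chr19:5771425-5848475_F, second probe: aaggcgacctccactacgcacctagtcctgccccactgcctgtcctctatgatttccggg
The forward and reverse probes of chr4:141527564-141547339 read the same 47 bases on opposite strands, given in capitals, and gave the widest strand difference among such pairs.
chr4:141527564-141547339_F: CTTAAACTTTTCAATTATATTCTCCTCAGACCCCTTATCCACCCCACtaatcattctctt
chr4:141527564-141547339_R: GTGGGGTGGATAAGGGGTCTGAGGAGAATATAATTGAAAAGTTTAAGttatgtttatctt

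Polyadenylation hexamers were searched in the probe itself on its own strand, as AATAAA and, separately, ATTAAA. The first, AATAAA, was found in the probes of 161 transcripts named by coordinates (3.96%) and of 12.1% of the 33264 other genes. ATTAAA was found in 103 (2.54%) against 4.35%. These are matches of letters in a window of 60 bases and say nothing of where transcripts end. Among the transcripts described below, the probes of 3 held AATAAA, in capitals here, and they are shown because they include 1 of the 6 brightest transcripts and a transcript that fell out of detection on fasting.
chr17:17481706-17482457_R: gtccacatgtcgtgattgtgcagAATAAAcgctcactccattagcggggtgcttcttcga
chr1:59449275-59474025_F: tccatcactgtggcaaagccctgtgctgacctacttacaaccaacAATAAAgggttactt
chr14:77077374-77086910_F: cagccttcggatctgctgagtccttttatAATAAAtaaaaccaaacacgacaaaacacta

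Probes were compared with one another and with the RefSeq promoter windows of build GRCm38.p6, each of 250 bases before to 50 bases after a gene's start. A run of at least 30 bases was shared with a probe of another name in the same sense by 84 of the transcripts and in the antisense direction by 337. The probe lay within a promoter window in the same sense for 25 and in antisense for 23. One such window is printed because the promoter's gene and the transcript both rose on fasting. It is that of 3930402G23Rik at chr8:10928408-10928707 on the minus strand, with the probe of chr8:10913790-10928696_R in capitals.
3930402G23Rik promoter window: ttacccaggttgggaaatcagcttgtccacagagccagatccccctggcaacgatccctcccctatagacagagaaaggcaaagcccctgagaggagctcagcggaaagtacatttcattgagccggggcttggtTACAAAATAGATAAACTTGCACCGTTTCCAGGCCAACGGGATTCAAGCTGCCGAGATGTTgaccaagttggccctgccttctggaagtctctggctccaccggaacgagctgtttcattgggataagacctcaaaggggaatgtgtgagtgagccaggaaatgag
Other promoter matches did not all show such agreement. On fasting in CTRL mice the transcript matched to Aak1 gave 0.62 (adjusted p = 0.0185) and Aak1 gave -0.36 (adjusted p = 0.000567). Between the fasted genotypes the transcript matched to Gm36738 gave -0.46 and that gene -0.70, in the same direction. Agreement over the matches as a set was not tested. Matches of the probes elsewhere in the genome, to repeats or to copies of genes, were not analysed here.

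About 6 in every 10 of these names gave a signal well above background in a given liver. By group the share was 58.5% ± 2.74 (SD, n = 6) in fed CTRL, 58.8% ± 2.26 in fed AAKO, 60.8% ± 1.84 in fasted CTRL, 59.8% ± 4.04 in fasted AAKO, 57.8% ± 1.26 in CL316243-treated CTRL and 58.4% ± 1.83 in CL316243-treated AAKO mice. The groups overlapped, and the fasted AAKO arrays were the most spread, from 52.45% to 63.19%. Among 9 comparisons of this share the smallest exact permutation p was 0.0152 (two-sided), for fasted over CL316243-treated CTRL mice, a difference of 2.93 percentage points with an adjusted p of 0.136. The smallest p that 6 against 6 arrays allow is 0.00216. On all 36 arrays 1757 of the transcripts were detected (43.3%, against 54.8% of other genes), and on none 899 (22.1%, against 22.8%).

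**Figure D1:**
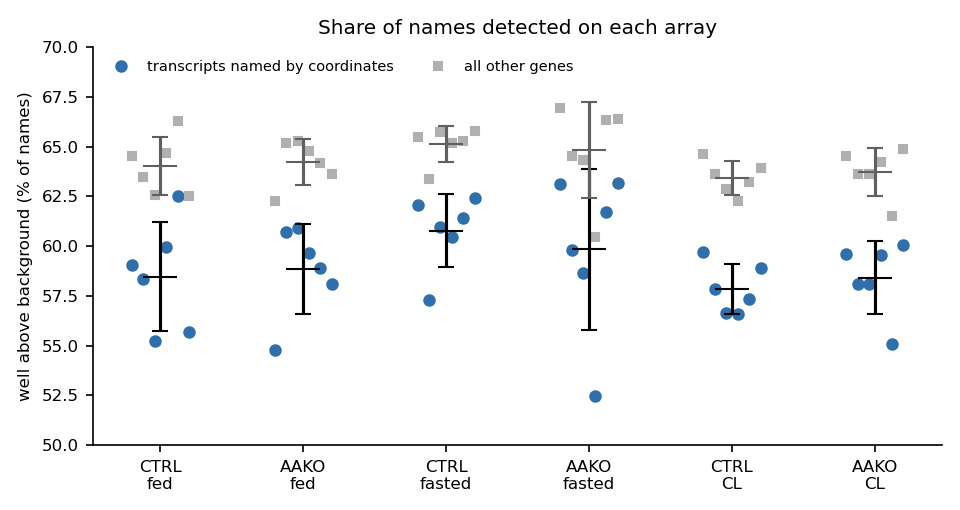
Share of names well above background on each array, in percent, by group; points are arrays, and bars are the mean and SD of 6 arrays. Transcripts named by coordinates (circles) lay below all other genes (squares) in each of the 6 groups, and the fasted AAKO arrays span from 52.45% to 63.19%.

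The filter on dim probes, well above background on at least 5 of 6 arrays of at least 1 group, left 2463 of the 4061 (60.7%) for testing, against 65.5% of other genes. A transcript could pass through the group in which it was high, so the counts below are of those tested and not of all names. Their median mean level was -2.63, against -0.51 over all genes tested. In length the tested and untested names had medians of 10886 and 8401 bases, and the median GC content of their probes was 45.0% and 43.3%. By chromosome the tested share ran from 51.4% on chromosome 13 to 68.4% on chromosome 17.

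With food freely available, the genotype was barely seen in these RNAs. Only chr9:88437245-88465751_F, a 28.5 kb interval that contains the zinc finger gene Zfp949 on the same strand, differed between fed AAKO and CTRL mice. Its level lay between -2.51 and -1.72 (median -2.24) in AAKO and between -3.85 and -2.46 (median -3.33) in CTRL mice. The ranges overlapped, with 1 CTRL mouse just inside the AAKO values. The log2 difference was 1.05 (SE 0.16, adjusted p = 0.00112). It was also higher in AAKO when fasted, by 1.19 (SE 0.16, adjusted p = 1.45e-07), and under CL316243, by 1.20 (SE 0.16, adjusted p = 8.8e-07), each without overlap. Zfp949 itself was higher by 1.1, 1.24 and 1.13 in the same order. Of all genes tested, 0.0783% differed in fed mice. Without adjustment, 129 of the 2463 transcripts (5.24%) had a p under 0.05, against 6.78% of all genes. That is close to the share this threshold gives with no difference at all. Within either wash batch alone, and in a fit of the fed groups alone, limma called 0, with 92, 183 and 168 at an unadjusted p under 0.05.

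In fasted mice the genotype separated 891 of the 2463 (36.2%), 418 higher and 473 lower in AAKO. Over all genes tested the share was 49.2%, with 22.0% higher and 27.2% lower. Within each of the 2 wash batches alone, the counts were 588 and 546. In the dimmest, middle and brightest tertile of those tested the share was 24.5%, 37.8% and 46.3%. It was 35.1% among those with no gene found around them and 38.8% among those touching a gene. The higher share of the calls, 46.9%, became 57.3% on the authors' own normalised values. The 12 transcripts with the widest fitted differences among those whose groups did not overlap are described next, 6 higher and 6 lower. Here and in the other comparisons, a fitted difference against a group with arrays not well above background has no exact size, and its place in the order is that of the fitted values alone.

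Among the higher ones was chr16:84708695-84708806_F, 6.63 kb from Mir155hg on the same strand, the host transcript of a microRNA of immune cells. It was well above background on all 6 fasted AAKO arrays and on none of the other 30. Its level in fasted AAKO mice lay between -3.98 and -3.09 (median -3.60), and in fasted CTRL mice, not well above background, between -7.27 and -5.04 (median -6.48). That made it at least 3.39-fold higher (adjusted p = 7.6e-09). A bound of this kind sets the bright group's mean against the dimmest detectable signal on the dim arrays, or against the probe's own where that was brighter. Mir155hg did not pass the filter.

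The reverse transcript chrX:11690182-11690581_R, 21.0 kb from Bcor, a corepressor that works with BCL6, was detected on all 36 arrays. In fasted AAKO mice it lay between -1.75 and -0.67 (median -1.0) and in fasted CTRL mice between -4.19 and -3.41 (median -3.90). The medians of the other 4 groups were all between -3.96 and -3.71. The log2 difference was 2.79 (SE 0.18, adjusted p = 9.99e-14), and Bcor was higher by 0.49 (adjusted p = 0.00302).

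Near Socs3, a brake on cytokine signalling, the forward transcript chr11:117835849-117842574_F lay 8.31 kb away on the opposite strand. No array of a CTRL group or of fed AAKO mice was well above background, and 5 of 6 were in fasted AAKO and in CL316243-treated AAKO mice. Levels in fasted AAKO lay between -5.52 and -4.00 (median -4.25) and in fasted CTRL between -7.34 and -6.88 (median -7.17). The difference was at least 1.80-fold when fasted (adjusted p = 3.47e-07) and at least 2.22-fold under CL316243 (adjusted p = 8.01e-07). Socs3 was higher by 0.93 when fasted (adjusted p = 0.123) and by 1.68 under CL316243 (adjusted p = 0.012).

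On chromosome 5 the 19.2 kb reverse transcript chr5:136129679-136148860_R was detected on every array. Fasted AAKO mice lay between 1.66 and 2.40 (median 2.17) and fasted CTRL mice between -2.39 and 1.58 (median -0.51). The CTRL mice were widely spread, and the highest of them, replicate 2, came close to the AAKO range. The log2 difference was 2.66 (SE 0.34, adjusted p = 1.14e-07), and 3.05 (adjusted p = 2.15e-10) without that mouse. A transcript 9.56 kb away on the same strand, ENSMUST00000179536, was higher by 2.91 (adjusted p = 6.82e-09).

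The 2 other transcripts on the high side were chr4:97144314-97144755_R and chr11:18367482-18393258_R. The first, 43.2 kb from its nearest named neighbour, lay between -2.96 and -1.55 (median -2.41) in fasted AAKO and between -5.58 and -3.85 (median -5.02) in fasted CTRL mice. Its difference was 2.57 (SE 0.25, adjusted p = 7.47e-10), while the neighbour NAP111903-1 gave -0.16 (adjusted p = 0.103). The second, a 25.8 kb interval around the predicted gene Gm12022, lay between 1.01 and 1.58 (median 1.26) in fasted AAKO and between -1.89 and 0.01 (median -1.45) in fasted CTRL mice. Its difference was 2.49 (SE 0.35, adjusted p = 4.67e-07), and Gm12022 did not pass the filter.

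On the low side was chr1:138570107-138632310_F, a 62.2 kb interval that contains the noncoding gene Platr22. Fasted CTRL mice lay between -3.96 and -1.17 (median -2.22), and the medians of the fed and CL316243 groups ran from -3.33 to -2.28. Fasted AAKO mice lay between -7.22 and -5.11 (median -6.42), with 1 of 6 arrays well above background. The fitted log2 difference was -4.03 (SE 0.38, adjusted p = 2.56e-10), mostly against values not well above background. A second, nested transcript, chr1:138592780-138622719_F, was not well above background on any fasted AAKO array and was at least 2.90-fold lower there (adjusted p = 5.22e-08). It lay between -4.88 and -2.37 (median -3.88) in fasted CTRL mice. Platr22 differed by -1.98 (adjusted p = 6.47e-05). Another forward transcript upstream, chr1:138528250-138538250_F, chosen after its values were seen, differed by -2.33 (SE 0.25, adjusted p = 5.22e-09). The 3 intervals are at 1 locus and are not independent.

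Another 3 transcripts were not well above background in fasted AAKO mice. The 274-base chr3:121615836-121616109_F, 79.1 kb from its nearest named gene, lay between -4.36 and -1.92 (median -2.47) in fasted CTRL and between -7.32 and -5.76 (median -6.11) in fasted AAKO mice, at least 5.94-fold lower (adjusted p = 2.31e-06). The transcript chr12:82457625-82476325_R, around Cox16, an assembly factor of cytochrome c oxidase, lay between -4.58 and -3.11 (median -3.35) in fasted CTRL and between -7.54 and -5.40 (median -6.30) in fasted AAKO mice. It was at least 3.44-fold lower (adjusted p = 2e-10), where Cox16 gave -0.17 (adjusted p = 0.0206). The 638-base chr18:57104718-57105355_F lay between -4.78 and -3.09 (median -3.98) in fasted CTRL mice, detected on 5 of 6 arrays, and between -7.41 and -5.06 (median -6.79) in fasted AAKO mice. It was at least 2.37-fold lower (adjusted p = 7.81e-06). No fed array of either genotype was well above background.

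The remaining member of this group was the brightest. Transcript chr19:5771425-5848475_F, on the strand opposite to Neat1, reached between 6.01 and 7.87 (median 7.36) in fasted CTRL mice. Fasted AAKO mice stayed between 3.36 and 4.70 (median 3.96). The log2 difference was -3.26 (SE 0.24, adjusted p = 2.38e-12), a 9.60-fold difference. It rests on the brighter probe of this name alone. The other probe, well above background on all 36 arrays, differed by 0.16 between the fasted genotypes, not tested. Neat1 differed by -0.33 (adjusted p = 0.11), and the probe named NEAT1 by -0.89 (adjusted p = 0.000184).

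**Figure D2:**
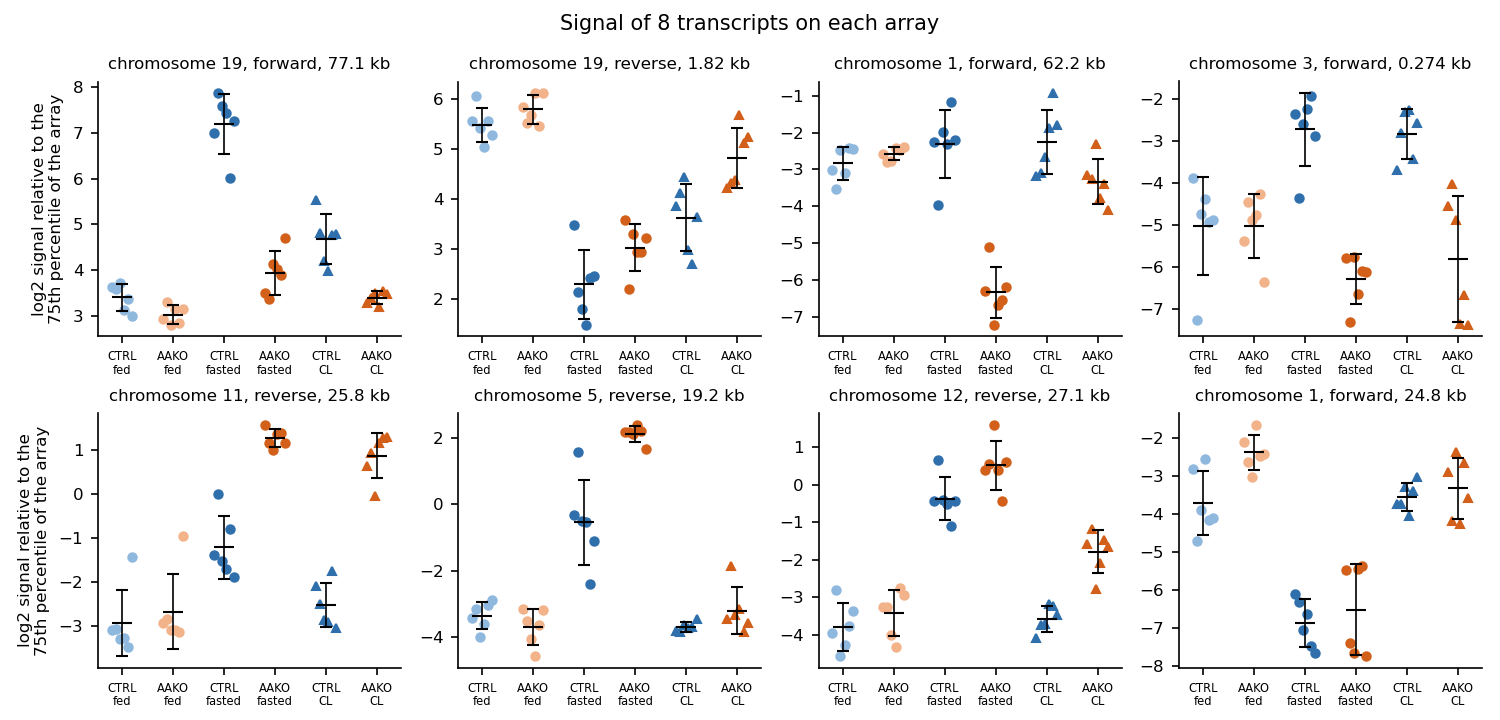
Log2 signal of 8 transcripts on each of 36 arrays, with each array's 75th percentile set to 0, by group (circles fed or fasted, triangles CL316243; bars are mean and SD, n = 6). The chromosome 19 forward transcript, by its brighter probe, reaches 7.20 on average in fasted CTRL mice and 3.93 in fasted AAKO mice. Its other probe, not drawn, averages 1.22 and 1.38. The chromosome 1 forward transcript of 62.2 kb drops to -6.34 in fasted AAKO mice.

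After CL316243 the genotype separated 348 of the 2463 (14.1%), 220 higher and 128 lower in AAKO. Over all genes tested the share was 24.5%, with 12.9% higher and 11.6% lower. Within the wash batches the counts were 159 and 73. The higher share of 63.2% became 51.7% on the authors' values. The widest difference was at chr11:18367482-18393258_R, which was also among the fasted ones above. Levels in treated AAKO mice lay between -0.05 and 1.30 (median 1.05) and in treated CTRL mice between -3.04 and -1.76 (median -2.68). The log2 difference was 3.44 (SE 0.35, adjusted p = 1.31e-08).

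A further 5 transcripts were higher in treated AAKO mice without overlap. At chr12:52944867-52971992_R, 5.07 kb from Heatr5a, treated AAKO mice lay between -2.79 and -1.17 (median -1.61) and treated CTRL mice between -4.09 and -3.19 (median -3.60). The difference was 1.77 (SE 0.32, adjusted p = 0.00012), but it rested on 1 of the 2 probes of this name, since the mean of both gave 0.49 (adjusted p = 0.202). The transcript chr5:104936417-104984892_R, opposite to Thoc2l, lay between -1.20 and 0.25 (median -0.15) against -2.37 to -1.46 (median -2.05), a difference of 1.75 (SE 0.27, adjusted p = 1.27e-05).

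The 741-base chr8:119739165-119739905_F lay between 0.23 and 1.21 (median 0.67) in treated AAKO against -1.19 to -0.85 (median -0.94) in treated CTRL mice, higher by 1.70 (SE 0.26, adjusted p = 1.3e-05). Near Apol7d, of the apolipoprotein L family, chr1:71730139-71730720_F lay between -0.66 and 0.53 (median -0.09) against -2.02 to -1.39 (median -1.70). It was higher by 1.66 (SE 0.25, adjusted p = 9.45e-06), with Apol7d at -0.49 (adjusted p = 0.137). At chr4:124091663-124128538_R the values were -4.31 to -3.55 (median -3.84) against -6.32 to -4.41 (median -5.43), with 6 and 1 of 6 arrays well above background. It was higher by 1.62 (SE 0.31, adjusted p = 0.000216).

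On the low side, chr3:121615836-121616109_F differed in treated mice as well, with AAKO mice between -7.38 and -4.02 (median -5.78) and CTRL mice between -3.69 and -2.26 (median -2.70). The difference was -2.99 (SE 0.55, adjusted p = 0.000124), with 3 of 6 AAKO arrays well above background. The transcript chr4:86267450-86277650_F, 17.4 kb from Haus6, lay between -2.41 and -1.44 (median -1.59) in treated AAKO and between -0.46 and 0.04 (median -0.24) in treated CTRL mice. It differed by -1.55 (SE 0.20, adjusted p = 6.87e-07) and, when fasted, by -2.0 (SE 0.20, adjusted p = 8.96e-10). Plin2, which coats lipid droplets, lies 24.8 kb away on the opposite strand. It was named after its values were seen, and gave -2.48 and -3.00 in the same order.

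The other 4 on the low side were smaller. For chr14:77077374-77086910_F the range was -4.99 to -4.01 (median -4.52) in treated AAKO against -3.78 to -2.64 (median -3.01) in treated CTRL mice, a difference of -1.40 (SE 0.31, adjusted p = 0.000864). For chr15:99765243-99783300_F it was -4.08 to -3.14 (median -3.68) against -2.50 to -1.83 (median -2.30), with a difference of -1.40 (SE 0.27, adjusted p = 0.000267). The genes nearest to both, 1700108F19Rik and 1700030F18Rik, did not pass the filter. For chr14:79249302-79290000_R, 124 kb from Dgkh, it was -2.84 to -2.30 (median -2.66) against -1.75 to -0.52 (median -1.32), and -1.30 (SE 0.24, adjusted p = 0.000151). For chr16:86770170-86874921_R, around Gm32461, it was -0.69 to -0.19 (median -0.46) against 0.29 to 1.01 (median 0.85), and -1.28 (SE 0.23, adjusted p = 0.000101), where Gm32461 gave -0.89 (adjusted p = 0.000485). Its second probe differed by -1.57, in the same direction.

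The fasted and the CL316243 contrast rest on different mice. Called in the same direction in both were 158 transcripts, 17.7% of those called when fasted and 45.4% of those called under CL316243, and 29 were called in opposite directions. Over all genes these shares were 26.1% and 52.2%.

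Many of these RNAs differed in level between fasted and fed mice in both genotypes, but these mice are of different experiments. In CTRL mice 717 of 2463 (29.1%) changed, 396 up and 321 down, against 43.8% of all genes with 19.8% up and 24.0% down. Within the wash batches 380 and 456 were called. In AAKO mice 1210 (49.1%) changed, 567 up and 643 down, against 63.6% with 27.5% up and 36.1% down. The share that rose depended on the scaling. In CTRL mice it was 55.2%, but 42.9% with the array median as reference, 42.5% after another background correction (normexp) and 66.0% on the authors' values. In AAKO mice it was 46.9%, and 30.3% with normexp and 57.9% on the authors' values. In AAKO mice the median of all genes was -0.10, and 0.01 on the authors' values.

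In CTRL mice a rise was seen at chr6:31037606-31037912_R, a 307-base interval 21.0 kb from 5330406M23Rik. Fasted mice lay between -1.86 and -0.96 (median -1.23) and fed mice between -6.13 and -4.44 (median -5.03), with 2 of 6 fed arrays well above background. The fitted rise was 3.90 (SE 0.27, adjusted p = 7.5e-13). A second transcript of this locus and strand, chr6:31007184-31007725_R, rose by 3.26 (SE 0.46, adjusted p = 6.8e-07), from -3.66 to -1.72 (median -2.81) in fed to -0.60 to 2.74 (median 0.43) in fasted CTRL mice. The gene 5330406M23Rik rose by 1.16 (adjusted p = 0.000141). The 2 transcripts parted between the genotypes when fasted, the first being lower in AAKO, at -0.69 (SE 0.27, adjusted p = 0.0358) and the second higher by 2.35 (SE 0.46, adjusted p = 7.69e-05).

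Transcript chr19:5771425-5848475_F rose by 3.79 (SE 0.24, adjusted p = 1.04e-13), a 13.9-fold change, from between 3.00 and 3.72 (median 3.48) in fed CTRL mice. In AAKO mice it rose by 0.91 (SE 0.24, adjusted p = 0.00147). That is the reading of its second, brighter probe. The first probe, just upstream on the same strand, went from a mean of 2.35 ± 0.28 (SD, n = 6) to 1.22 ± 0.19 in CTRL mice, a difference of -1.13, and differed by 0.16 between the fasted genotypes, neither tested. Both probes were well above background on all 36 arrays. Another forward transcript there, chr19:5841103-5845579_F, chosen after its values were seen, fell by 0.71 (SE 0.13, adjusted p = 2.59e-05).

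Transcript chr12:52944867-52971992_R rose by 3.42 (SE 0.32, adjusted p = 4.28e-10), from between -4.57 and -2.81 (median -3.86) in fed to between -1.11 and 0.67 (median -0.44) in fasted CTRL mice. In AAKO mice it rose by 3.94 (SE 0.32, adjusted p = 3.41e-12). Heatr5a, on the same strand, fell by 0.80 (adjusted p = 4.67e-09) in CTRL and fell by 0.98 in AAKO mice. The transcript's other probe was well above background on 6 of 36 arrays.

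At chr5:106982442-107045717_R, which contains Gm8350, levels went from between -7.29 and -4.09 (median -4.42) to between -3.12 and -0.82 (median -1.49). It rose by 3.25 (SE 0.43, adjusted p = 2.13e-07), beside 2.05 (adjusted p = 4.75e-08) for Gm8350. At chr1:71984564-71985074_R they went from between -6.23 and -4.86 (median -5.33), with 1 of 6 arrays well above background, to between -2.57 and -1.71 (median -2.13). The fitted rise was 3.23 (SE 0.29, adjusted p = 1.13e-10).

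Among the falls in CTRL mice was that of chr19:5834117-5835940_R, a bright transcript 6.71 kb from the probe named NEAT1, on the strand of Neat1. Fed CTRL mice lay between 5.03 and 6.05 (median 5.48) and fasted CTRL mice between 1.48 and 3.47 (median 2.28). It fell by 3.19 (SE 0.29, adjusted p = 2.63e-10), a 9.11-fold change, and fell by 2.76 (SE 0.29, adjusted p = 9.92e-10) in AAKO mice. Neat1 itself fell by 1.39 (adjusted p = 7.38e-08), and the probe named NEAT1 gave 0.18 (adjusted p = 0.458). In this stretch of chromosome 19 the reverse transcript fell and the forward one, by its brighter probe, rose.

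Of the 6 falling transcripts described here, 4 went below detection. In fed CTRL mice chr1:59449275-59474025_F lay between -4.73 and -2.57 (median -4.01) and was well above background on all 6 arrays, and on none of the 12 fasted arrays. It fell at least 2.98-fold in CTRL (adjusted p = 7.04e-08) and at least 7.47-fold in AAKO mice (adjusted p = 7.85e-11). In fasted CTRL mice chr15:102926581-102932542_R was between -7.35 and -5.80 (median -6.70), at least 2.51-fold below its fed range of -4.59 to -3.49 (median -4.03, adjusted p = 1.55e-08). Gm28876, which it contains, gave -0.22 (adjusted p = 0.0862).

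The transcript chr1:134245856-134246607_F, 7.11 kb from Tmcc2, was well above background on 11 of 12 fed arrays and on none of the other 24. It fell at least 2.18-fold in CTRL (adjusted p = 9.65e-07) and at least 2.35-fold in AAKO mice (adjusted p = 9.68e-09). Its fed CTRL range was -5.07 to -3.64 (median -4.13) and its fasted CTRL range -7.37 to -5.42 (median -7.14). For chr1:44915250-44944125_F the fed CTRL range was -5.03 to -3.85 (median -4.41), detected on 5 of 6 arrays, and the fasted one -7.38 to -6.27 (median -6.60), detected on none. It fell at least 1.90-fold (adjusted p = 3.25e-09). In fasted AAKO mice 4 of 6 arrays were well above background.

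The sixth, chr10:116814196-116920696_R, a 107 kb interval beside Cpsf6, a subunit of the mRNA 3′ end processing machinery, was bright in all groups. It went from between 1.16 and 2.37 (median 1.69) to between -1.41 and 0.34 (median -0.49) and fell by 2.25 (SE 0.21, adjusted p = 4.49e-10), beside a change of -0.55 (adjusted p = 4.57e-06) for Cpsf6. Its other probe gave a difference of 0.45, in the opposite direction and not tested.

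In AAKO mice the largest rise without overlap was at chr5:136129679-136148860_R, from between -4.57 and -3.16 (median -3.57) to the 1.66 to 2.40 given above. It rose by 5.81 (SE 0.34, adjusted p = 2.41e-15), a 55.9-fold change, and by 2.81 (SE 0.34, adjusted p = 5.37e-08) in CTRL mice. Next came chr10:96103732-96103867_F, a 136-base interval 18.3 kb beyond Btg1, an antiproliferative gene. It lay between -7.25 and -5.59 (median -6.70) in fed AAKO mice, not well above background, and between -1.92 and -0.82 (median -1.08) in fasted AAKO mice. It rose at least 16.1-fold (adjusted p = 9.32e-12) and, in CTRL mice, where 4 of 6 fasted arrays were well above background, at least 1.93-fold (adjusted p = 3.73e-05). Btg1 rose by 1.15 (adjusted p = 1.47e-06).

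Another 3 forward transcripts lie between Btg1 and that one, at 11.6, 12.6 and 15.1 kb, and are named after their values were seen. In fasted against fed AAKO mice chr10:96098058-96098623_F rose by 4.13 (SE 0.37, adjusted p = 3.13e-11), from between -3.29 and -2.49 (median -2.98) to between 0.45 and 1.63 (median 1.33). There chr10:96096995-96097589_F rose by 1.33 (SE 0.30, adjusted p = 0.000212). The fourth, chr10:96100545-96101009_F, was well above background on 1 of 36 arrays and was not tested. A second probe of Btg1, nearer to these transcripts than the one that represents the gene, averaged -3.08 in fed and 0.72 in fasted AAKO mice.

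Falls in AAKO mice were at chr1:59449275-59474025_F, above, and at chr2:143988645-143993945_R. The second lay between -3.02 and -1.64 (median -2.32) in fed and between -7.31 and -4.89 (median -6.29) in fasted AAKO mice, where 2 of 6 arrays were well above background. The fitted change was -3.81 (SE 0.44, adjusted p = 5.4e-09), and Gm5535, 21.0 kb away, rose by 0.42 (adjusted p = 0.024). Called in the same direction on fasting in both genotypes, which share no mice, were 512 transcripts, 71.4% of those called in CTRL and 42.3% of those called in AAKO mice. In opposite directions 28 were called. Over all genes these shares were 77.2% and 53.2%.

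At 3930402G23Rik, whose promoter window is printed above, chr8:10913790-10928696_R was not well above background on any fed array. It lay between -5.06 and -4.24 (median -4.67) in fasted CTRL and between -3.89 and -2.89 (median -3.72) in fasted AAKO mice. It rose at least 1.34-fold in CTRL (adjusted p = 2.59e-05) and at least 2.99-fold in AAKO mice (adjusted p = 1.62e-06). The gene rose by 2.17 (adjusted p = 4.72e-09) and 4.14 (adjusted p = 7.89e-16). In fasted mice the transcript was higher in AAKO by 1.16 (SE 0.37, adjusted p = 0.0097) and the gene by 2.19 (adjusted p = 2.91e-09). Both were chosen for this promoter match after their values were seen.

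Between CL316243-treated and fed CTRL mice, which are of different experiments, 270 of the 2463 (11%) differed, 129 up and 141 down after treatment. Over all genes the share was 23.1%, with 10.5% up and 12.7% down. Within the wash batches 88 and 69 were called. In AAKO mice 393 (16%) differed, 240 up and 153 down, against 31.4% with 15.5% up and 15.9% down. Within the wash batches 246 and 75 were called. The share of rises in AAKO mice, 61.1%, became 43.8% on the authors' values. In CTRL mice chr1:71984564-71985074_R rose to between -3.57 and -2.13 (median -3.03), a fitted 2.39 (SE 0.29, adjusted p = 3.87e-07) over fed mice with 1 of 6 arrays well above background. Another rise was that of chr3:121615836-121616109_F, from between -7.26 and -3.89 (median -4.81) to the range given above, by 2.17 (SE 0.55, adjusted p = 0.00392). Both had also risen on fasting in CTRL mice, by 3.23 and by 2.29 (SE 0.55, adjusted p = 0.000921); these contrasts share their fed mice.

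Falls in CTRL mice were at chr1:134245856-134246607_F, at least 1.92-fold (adjusted p = 9.92e-05), and chr19:5834117-5835940_R. The second went to between 2.70 and 4.44 (median 3.75) and fell by 1.86 (SE 0.29, adjusted p = 2.37e-05). In AAKO mice chr11:18367482-18393258_R rose most, from between -3.14 and -0.96 (median -3.01), by 3.59 (SE 0.35, adjusted p = 3.74e-09). In CTRL mice the value was 0.42 (SE 0.35, adjusted p = 0.432). Next in AAKO mice was chr1:71939741-71947891_R, to between -4.99 and -3.55 (median -4.18), at least 2.0-fold higher than in fed mice (adjusted p = 9.93e-06), where no array was well above background.

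The falls in AAKO mice were at chr10:92547995-92556102_F and chr1:134245856-134246607_F. The first went from between -0.84 and 1.23 (median 0.33) to between -4.29 and -2.26 (median -3.32), a change of -3.26 (SE 0.69, adjusted p = 0.000481). The second fell at least 2.13-fold (adjusted p = 8.52e-06). In both genotypes, which share no mice, 98 transcripts were called in the same direction after CL316243, 36.3% of those of CTRL and 24.9% of those of AAKO mice. Over all genes these shares were 49.4% and 36.3%.

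Fasted and CL316243-treated mice come from 1 experiment and were compared directly. In CTRL mice 571 of 2463 (23.2%) differed, 319 higher and 252 lower when fasted, against 37.1% of all genes with 17.8% higher and 19.3% lower. Within the wash batches 274 and 350 were called. In AAKO mice 1199 (48.7%) differed, 520 higher and 679 lower, against 60.0% with 26.0% higher and 34.0% lower. The higher share of 55.9% in CTRL mice was 44.3% with the array median, 40.8% with normexp and 68.8% on the authors' values. In AAKO mice the 43.4% was 20.3% with normexp and 63.5% on the authors' values, where the median of all genes moved from -0.08 to 0.05. Same-direction calls in both genotypes numbered 428, 75% of those of CTRL and 35.7% of those of AAKO mice, and 16 were called in opposite directions. Over all genes these shares were 74.6% and 46.1%.

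The transcripts highest when fasted were among those already named. In CTRL mice chr12:52944867-52971992_R was higher by 3.20 (SE 0.32, adjusted p = 3.21e-09) and chr5:136129679-136148860_R by 3.15 (SE 0.34, adjusted p = 1.23e-08). In AAKO mice chr10:96103732-96103867_F was at least 15.6-fold higher (adjusted p = 7.58e-12) and chr5:136129679-136148860_R higher by 5.23 (SE 0.34, adjusted p = 4.43e-14). The treated medians were -3.60 and -3.71 in CTRL mice, beside fed medians of -3.86 and -3.29. In AAKO mice they were -7.02 and -3.40, beside -6.70 and -3.57.

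Those lowest when fasted included chr1:59449275-59474025_F, at least 3.35-fold lower in CTRL mice (adjusted p = 4.92e-08), and chr19:36699712-36763966_R, a 64.3 kb interval. The latter lay between -0.48 and 1.39 (median 0.07) in treated and between -4.54 and -1.64 (median -2.63) in fasted CTRL mice, with a difference of -2.93 (SE 0.38, adjusted p = 2.38e-07). In AAKO mice chr2:67836003-67836461_F, 122 kb from B3galt1, had the widest difference. It lay between 4.48 and 6.88 (median 5.99) in treated and between -0.23 and 3.01 (median 1.77) in fasted AAKO mice, with a difference of -4.26 (SE 0.67, adjusted p = 1.98e-06). The transcript chr2:143988645-143993945_R had a difference of -4.05 (SE 0.44, adjusted p = 2.17e-09).

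Whether the genotype difference itself depended on the condition was tested as an interaction. It changed between fed and fasted mice for 514 transcripts (20.9%; 33.6% of all genes), between fed and CL316243-treated mice for 112 (4.55%; 10.8%), and between CL316243-treated and fasted mice for 469 (19%; 31.8%). Within the wash batches these counts were 301 and 187, 23 and 20, and 284 and 175. From fed to fasted it changed at chr9:65368908-65377592_R (adjusted p = 1.41e-06), by an amount that cannot be given because no fed array was well above background. It was well above background on all 6 fasted AAKO arrays, between -3.24 and -1.78 (median -2.21), and on 2 other arrays, both of fasted CTRL mice, whose range was -6.33 to -3.00 (median -5.24). No CL316243 array was either, and the change from CL316243 to fasted had an adjusted p of 3.73e-05.

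A positive change from fed to fasted, with all groups well above background, was at chr5:136129679-136148860_R, at 3.00 (SE 0.48, adjusted p = 1.39e-05). Negative ones were at chr1:138570107-138632310_F (adjusted p = 2.57e-07) and chr3:121615836-121616109_F (adjusted p = 0.000543), where 1 and 0 of 6 fasted AAKO arrays were well above background. From fed to CL316243 the change was 3.17 (SE 0.49, adjusted p = 4.71e-05) at chr11:18367482-18393258_R and, where of the 4 groups treated AAKO mice alone had arrays well above background, of no exact size at chr11:117835849-117842574_F (adjusted p = 0.000464). On the negative side the fitted values were -2.98 (SE 0.78, adjusted p = 0.0102) at chr3:121615836-121616109_F and -2.93 (SE 0.71, adjusted p = 0.00601) at chr18:3003075-3016150_F. That last value became -0.19 (adjusted p = 0.391) with normexp, and the transcript was well above background on 17 of 36 arrays and on none of fed CTRL mice.

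From CL316243 to fasted the genotype difference changed at chr10:96103732-96103867_F (adjusted p = 0.00012), which was well above background on no treated array. It changed by -3.42 (SE 0.95, adjusted p = 0.00572) at chr2:67836003-67836461_F, where AAKO exceeded CTRL mice by 2.14 (SE 0.67, adjusted p = 0.0184) under CL316243. Its neighbour chr2:67834535-67834914_F, chosen after its values were seen, was higher there by 2.13 (SE 0.51, adjusted p = 0.00243). At chr1:71939741-71947891_F it changed by -2.98 (SE 0.33, adjusted p = 5.74e-08). This transcript lay between 1.5 and 1.93 (median 1.73) in fasted CTRL and between -1.09 and -0.22 (median -0.65) in fasted AAKO mice, and between 2.46 and 3.00 (median 2.74) and between 3.02 and 3.63 (median 3.26) in the treated mice. The fasted genotypes differed by -2.40 (SE 0.23, adjusted p = 5.2e-10), and the treated ones by 0.58 (SE 0.23, adjusted p = 0.0683). The share of positive interactions also moved with the scaling, from 42.8% to 55.7% with the array median and 55.1% on the authors' values (fed to fasted). From fed to CL316243 it went from 63.4% to 47.5% on the authors' values. From CL316243 to fasted it was 40.5%, and 29.6% with normexp, 50.6% with the median and 59.6% on the authors' values.

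**Figure D3:**
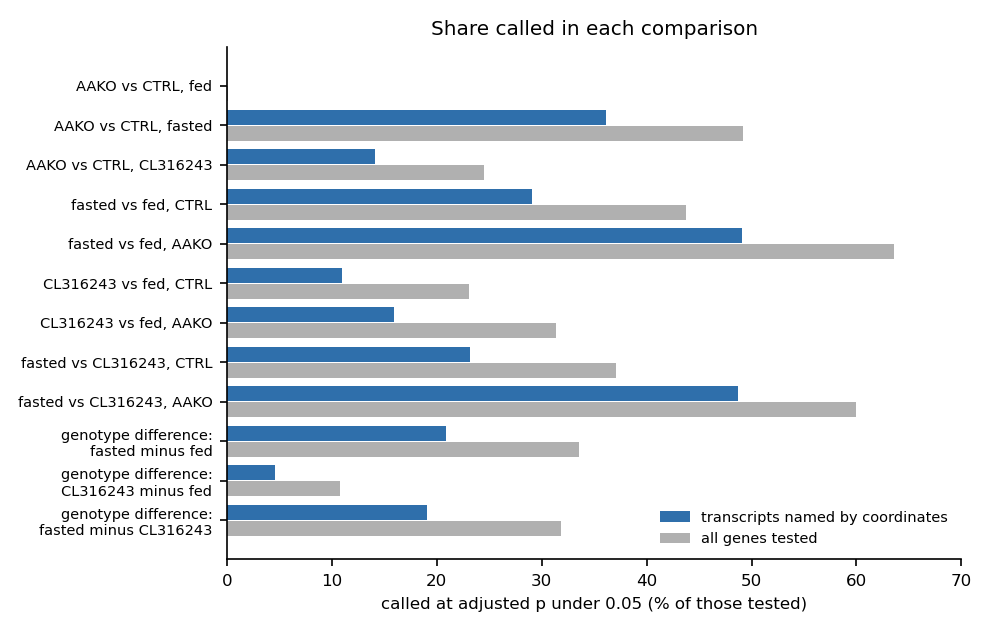
Share of those tested that were called at adjusted p under 0.05, in percent, in each of 12 comparisons, for transcripts named by coordinates (upper bars, 2463 tested) and all genes tested (lower bars, 24251). In each comparison but that of fed mice the upper bar is visibly the shorter, for example 36.2% against 49.2% in fasted mice.

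In none of the 9 comparisons of 2 groups were 701 of the 2463 transcripts called (28.5%, against 15.5% of all genes). In 6 or more of them 163 were called (6.62%, against 16.8%).

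The 6 brightest transcripts differed little between groups, the widest difference called being -1.04 (SE 0.08, adjusted p = 8.53e-13), on fasting in AAKO mice, at chr1:193875525-193978800_R. That transcript came first by its brighter probe, at 9.68 on average over 36 arrays. Its interval is not free of genes, since it contains probes of 4 genes with another name, the nearest on the same strand. The transcript lay between 9.24 and 9.63 (median 9.43) in fasted CTRL and between 8.68 and 9.18 (median 8.97) in fasted AAKO mice, with a difference of -0.51 (SE 0.08, adjusted p = 3.92e-06). Its other probe, elsewhere in the interval, averaged between -3.76 and -2.88 by group. Whether the brighter probe reads an RNA of this interval or that of a gene elsewhere was not tested, so the level may not be that of a noncoding transcript. At chr14:78924115-78938125_F the mean was 9.14 and the fasted ranges 8.92 to 9.19 (median 9.04) in CTRL and 8.93 to 9.05 (median 8.98) in AAKO mice. At chr6:116092274-116144199_F the mean was 8.67, and group medians lay between 8.46 and 8.83.

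For chr12:73838608-73862621_R, beside the phosphatase gene Ppm1a, the mean was 8.34 and group medians lay between 8.15 and 8.49. For chr17:17481706-17482457_R the mean was 8.24, and fasted AAKO mice (7.87 to 8.06, median 7.96) were lower than fasted CTRL mice (8.03 to 8.44, median 8.31), with a difference of -0.31 (SE 0.06, adjusted p = 2.72e-05). For chr6:83368261-83407280_F the mean was 8.18, and no comparison called it. The probes of 4 of the 6 were rich in G and C, with 83.3%, 88.3%, 78.3% and 78.3% at chr14:78924115-78938125_F, chr6:116092274-116144199_F, chr12:73838608-73862621_R and chr6:83368261-83407280_F, against a median of 45.0% over all names. The part of base composition in their brightness was not tested.

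For 832 intervals the array read both strands under the same coordinates. Both strands were tested in 398 (47.8%), a single one in 318 and neither in 116. Where both were tested the median difference between the strands' mean levels was 2.02, and it was within 1 in 93 and over 4 in 112. These compare 2 probes and not only 2 RNAs, since levels of different probes depend on their sequence. The widest difference was at chr4:141527564-141547339, with a mean of 7.10 forward and -3.73 reverse. The forward level lay between 6.30 and 7.49 (median 7.28) in fasted CTRL and between 6.98 and 7.49 (median 7.09) in fasted AAKO mice, and neither strand was called in any comparison.

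Next were chr14:78924115-78938125, chr13:108548345-108679004 and chr5:52461266-52541416. At the first the forward mean was 9.14 and the reverse -1.23. The reverse transcript, chr14:78924115-78938125_R, 13.0 kb from Akap11 on the same strand, an anchor of protein kinase A, rose on fasting by 0.48 (SE 0.10, adjusted p = 0.000146) in CTRL and 1.34 (SE 0.10, adjusted p = 2.72e-13) in AAKO mice. Its ranges were -1.38 to -0.74 (median -1.22) in fasted CTRL and -0.44 to -0.24 (median -0.39) in fasted AAKO mice. Akap11 rose by 0.62 and 1.41.

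At chr13:108548345-108679004 the reverse strand averaged 5.30 and the forward -4.80. The reverse transcript chr13:108548345-108679004_R was higher in AAKO than in CTRL mice after CL316243 by 0.20 (SE 0.06, adjusted p = 0.0149), and chr13:108548345-108679004_F was called in no comparison. At chr5:52461266-52541416 the reverse strand averaged 5.02 and the forward -4.99. Transcript chr5:52461266-52541416_R was higher in AAKO mice by 0.99 (SE 0.20, adjusted p = 0.000116) when fasted and by 0.80 (SE 0.20, adjusted p = 0.00337) after CL316243. Its fasted ranges were 5.14 to 5.95 (median 5.78) in AAKO and 3.82 to 5.5 (median 4.81) in CTRL mice, which overlapped, and chr5:52461266-52541416_F was called in no comparison.

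For 153 intervals the 2 probes were complementary over at least 20 bases, as at chr4:141527564-141547339, so that they read the same stretch on both strands. In 58 of these both strands were tested, and in 27 of them the levels differed by more than 2 (median 1.95, largest 10.8). Among all 398 intervals with both strands tested, the genotype was called in fasted mice on both strands of 50, in the same direction in 31. It was called on a single strand of 186. In this contrast 36.2% of all the transcripts tested and 49.2% of all genes were called. Whether the strands were called together more often than these shares alone would give was not tested.

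**Figure D4:**
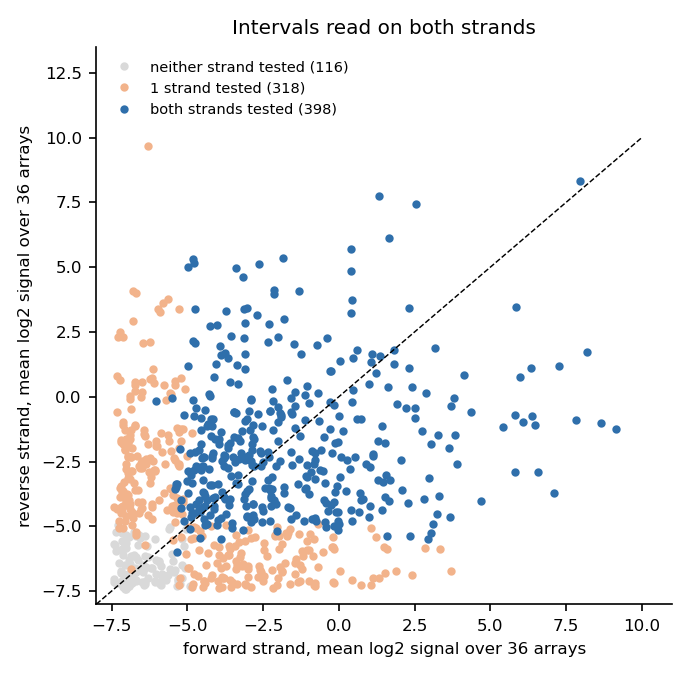
Mean log2 signal over 36 arrays of the reverse strand (vertical) against the forward strand (horizontal) for 832 intervals read on both strands, with the line of equality dashed. Of these, 398 had both strands tested, and 112 of them lie more than 4 from equality.

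The nearest named gene was on the same strand, inside the interval or within 5 kb of it, for 475 pairs in which both were tested. In fasted mice the genotype was called for the transcript in 203 of these pairs and for the gene in 272. Both were called in 136 pairs, in the same direction in 115 (84.6%). On the opposite strand there were 422 pairs, with the transcript called in 150 and the gene in 237. Both were called in 90, in the same direction in 65 (72.2%). At 5 to 50 kb the same-direction share was 68.5% on the same and 59.7% on the opposite strand. Whether both were called more often than the separate counts alone would give was not tested. Pearson's r of the log2 differences over these pairs was 0.38 on the same and 0.17 on the opposite strand, and 0.29 and 0.11 for genes at 5 to 50 kb. Over CL316243-treated mice it was 0.43 and 0.09, and 0.02 and 0.16 at 5 to 50 kb. Pairs share their arrays, several share a gene (387 genes among the 475 same-strand pairs), and r is a description across loci.

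**Figure D5:**
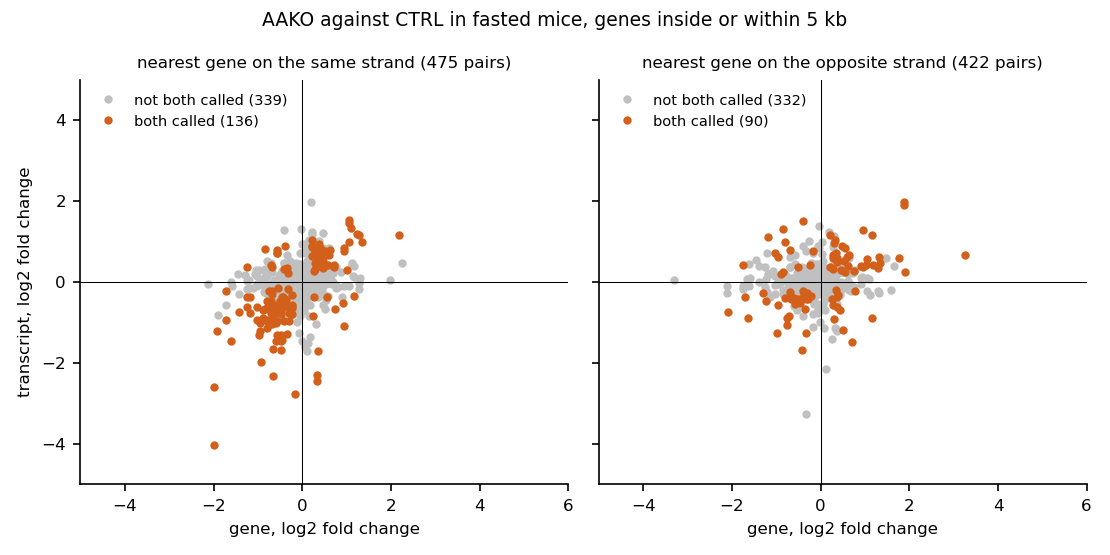
Log2 fold change of AAKO against CTRL in fasted mice for each transcript named by coordinates (vertical) against its nearest named gene inside or within 5 kb (horizontal), on the same strand (left, 475 pairs) and the opposite strand (right, 422 pairs). Orange marks pairs in which both were called, 136 and 90, and 115 and 65 of these lie in the quadrants of equal sign.

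Where a name had several probes, they could be set against each other. In 97 names all probes were well above background on all 36 arrays, and the median range of the fasted genotype difference between probes of a name was 0.22. In 3 of them probes differed in opposite directions by more than 0.5 each. The values given for a name are those of its brightest probe.

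Noncoding genes with a name were set beside them. Of a list of 50 such genes, among them Neat1, H19, Gas5, Meg3 and small nucleolar RNA host genes, 43 were on the array and 38 were tested. On fasting in CTRL mice 20 rose and 4 fell, where 19.8% of all genes tested rose and 24.0% fell, with a median log2 change of 0.35 against -0.05 over all genes. Over the 4 other scalings 19 to 20 rose and 3 to 6 fell, with medians from 0.22 to 0.35. On fasting in AAKO mice 17 rose and 11 fell (median 0.23), beside 27.5% and 36.1% of all genes. After CL316243 in CTRL mice 7 rose and 2 fell (median 0.17), beside 10.5% and 12.7%. Fasted and CL316243-treated CTRL mice share an experiment. Between them 13 were higher and 5 lower when fasted (median 0.09), beside 17.8% and 19.3%. In fasted AAKO against fasted CTRL mice 11 were higher and 8 lower, beside 22.0% and 27.2% of all genes (median -0.07, against -0.03).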

How the data were processed

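Liver RNA of 36 mice was hybridised to 1-colour Agilent arrays (design 074809, 200 ng RNA, Cy3). Per the file headers, the authors extracted signal intensity with Feature Extraction 10.10.1.1 of Agilent, and it is deposited background-subtracted. The deposited log2 value table of the authors, normalised by steps not given in the sources used here, served as an alternative. It held 2432 of the transcripts tested. Here, 2701 outlier spots were left out, spots of a probe were averaged over 56605 probes, and log2 intensity was set relative to the 75th percentile of each array. No spot was saturated.

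Each name was represented by its brightest probe. Genes well above background on at least 5 of 6 arrays of a group were fitted with limma 3.58.1 (R 4.3.3) over all 36 arrays, with group and wash batch, and p-values were adjusted by Benjamini-Hochberg over 24251 genes. Depth does not apply to arrays, whose number, 6 per group, limits the precision. On simulated data for the fasted genotype comparison, 78% of 2-fold and 97% of 4-fold changes were recovered among 200 changed of 24251 genes, with 6 false calls.

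The transcripts named in the text were the 6 highest and 6 lowest called without overlap between groups in the fasted and CL316243 genotype contrasts and in fasting of CTRL mice, 2 and 2 in the others and, overlap allowed, in the interactions, the 6 brightest and 4 strand pairs, plus those said to be chosen after their values were seen. The members and lists were chosen with earlier results of these data known. Alternatives covered scaling, background correction, filter, probe choice, wash batch, slide, replicate block and each mouse left out. Probe genes were named through RefSeq tables of GRCm38.p6, and coordinates are those of mm9 in the files. The gene nearest to 1 named transcript is not reported here.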

Additional observations from a re-analysis of the deposited data

Results flagged for a closer look

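Single mice stood far from the other 5 of their group in 19 of 308 groups looked at (6.17%), where chance gives about 1 in 20. At chr11:117835849-117842574_F, replicate 2 of treated AAKO mice was at -6.66, with the nearest of the others at -3.76. For chr5:136129679-136148860_R the value of fasted AAKO replicate 6 was 1.66 and the next 2.13. Replicate 2 of the treated AAKO mice gave -1.85 at chr5:136129679-136148860_R, against -3.15 for its nearest mate. The level of chr11:18367482-18393258_R in fed CTRL replicate 6 was -1.43, beside -3.06 in the closest mouse. In fed AAKO replicate 6, chr11:18367482-18393258_R was at -0.96, and -2.84 was the nearest value. At chr3:121615836-121616109_F, replicate 2 of fed CTRL mice was at -7.26, with the nearest of the others at -4.94. For chr12:82457625-82476325_R the value of fed CTRL replicate 1 was -4.15 and the next -3.59. Replicate 2 of the fasted CTRL mice gave -4.58 at chr12:82457625-82476325_R, against -3.47 for its nearest mate. The level of chr8:119739165-119739905_F in fed CTRL replicate 6 was 0.11, beside -1.17 in the closest mouse. In fed CTRL replicate 4, chr5:106982442-107045717_R was at -7.29, and -4.52 was the nearest value. At chr5:106982442-107045717_R, replicate 5 of treated AAKO mice was at -6.32, with the nearest of the others at -4.81. For chr10:92547995-92556102_F the value of treated CTRL replicate 4 was -7.27 and the next -3.01. Replicate 4 of the treated CTRL mice gave 1.39 at chr19:36699712-36763966_R, against 0.17 for its nearest mate. The level of chr19:36699712-36763966_R in treated AAKO replicate 2 was -1.91, beside -1.01 in the closest mouse. In fed AAKO replicate 4, chr12:73838608-73862621_R was at 8.26, and 8.41 was the nearest value. At chr4:141527564-141547339_F, replicate 6 of fed AAKO mice was at 6.09, with the nearest of the others at 6.89. For chr8:10913790-10928696_R the value of treated AAKO replicate 3 was -7.11 and the next -5.71. Replicate 3 of the fed CTRL mice gave -6.63 at chr10:96096995-96097589_F, against -5.05 for its nearest mate. The level of chr10:96098058-96098623_F in fasted CTRL replicate 2 was 1.34, beside -1.22 in the closest mouse. The cause was not tested.

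In 12 cases a named transcript's genotype difference changed between conditions by a test of the interaction itself (limma, adjusted over all genes), with adjusted p from 5.74e-08 to 0.0102. At chr9:65368908-65377592_R the change from fed to fasted was 3.30. For chr5:136129679-136148860_R, from fed to fasted, it was 3.00. From fed to fasted, chr1:138570107-138632310_F gave -4.29. At chr3:121615836-121616109_F the change from fed to fasted was -3.56. For chr11:18367482-18393258_R, from fed to CL316243, it was 3.17. From fed to CL316243, chr11:117835849-117842574_F gave 2.78. At chr3:121615836-121616109_F the change from fed to CL316243 was -2.98. For chr18:3003075-3016150_F, from fed to CL316243, it was -2.93. From CL316243 to fasted, chr10:96103732-96103867_F gave 3.47. At chr9:65368908-65377592_R the change from CL316243 to fasted was 2.65. For chr2:67836003-67836461_F, from CL316243 to fasted, it was -3.42. From CL316243 to fasted, chr1:71939741-71947891_F gave -2.98. At chr9:65368908-65377592_R, chr10:96103732-96103867_F, chr11:117835849-117842574_F and chr18:3003075-3016150_F, and at chr3:121615836-121616109_F from fed to fasted, at least 1 group had no array well above background, so these fitted values have no exact size.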

How the results depend on the processing

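Of 68 results for named transcripts, all 960 refits that left out 1 mouse kept direction and call. Of 808 refits under other settings 806 did, the exceptions being chr12:52944867-52971992_R after CL316243 with the mean of its probes (0.49, adjusted p = 0.202) and the change at chr18:3003075-3016150_F from fed to CL316243 with normexp (-0.19, adjusted p = 0.391). Within 1 wash batch, with fewer samples, 116 of 136 kept the call and 20 lost it, and 0 reversed. The named transcripts had been chosen for wide called differences in these same data, without overlap except in the interactions. Leaving out 1 mouse could therefore hardly undo their calls and is a weak test of them. The counts of transcripts called within wash batch 1 and 2 were 588 and 546 for the fasted genotype contrast, 159 and 73 for that under CL316243, 380 and 456 for fasting in CTRL, 88 and 69 for CL316243 in CTRL, 246 and 75 for CL316243 in AAKO, and 274 and 350 for fasted against treated CTRL mice. For the interactions they were 301 and 187 (fed to fasted), 23 and 20 (fed to CL316243) and 284 and 175 (CL316243 to fasted). In fed mice 2 were called with normexp, on the authors' values and with the mean of probes. There 0 were called by limma within batch 1 (92 at an unadjusted p under 0.05), within batch 2 (183) and in the fit of the fed groups alone (168).

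With 1 mouse left out the counts ran from 795 to 941 (fasted genotype), 255 to 379 (CL316243 genotype), 657 to 729 and 1152 to 1195 (fasting, CTRL and AAKO), 217 to 280 and 325 to 390 (CL316243), 512 to 612 and 1118 to 1191 (fasted against treated), and 459 to 616, 87 to 134 and 408 to 571 (interactions), with 1 throughout in fed mice. The difference in detected share between fasted and treated CTRL mice ran from 2.61 to 3.63 points. Without fasted CTRL replicate 2 it was 3.63 (exact permutation, adjusted p = 0.039).

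The replicate numbers did not pair the mice, since same-numbered samples had a mean correlation of deviations of -0.00106 and 16 of 90 pairs were over 0.1. With the replicate block 886 transcripts were called in the fasted genotype contrast and 1 in the fed one, and no count moved by over 1.5 times. Differences against groups not well above background have no exact size.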
